A study of Mus musculus with 10 samples.

Results

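The Toll-like receptors and their adaptors examined here were 10 genes chosen by symbol from the 48897 rows of each expression table, all 10 of which were found. They comprise 7 receptors (Tlr1, Tlr2, Tlr4, Tlr5, Tlr6, Tlr7 and Tlr9), the co-receptor gene Cd14, the adaptor gene Myd88 and Irak3, which encodes an inhibitor of the pathway. RNA-seq was performed on 10 mouse libraries in 4 groups. In the epithelium, EpCAM+; CD45- cells had been sorted from the prostates of C57BL/6 mice aged 3 months, with 3 libraries (A, B and C) called controls and 3 libraries (A, B and C) of a genotype that adds Arid1aPC-/- to that of the controls, called labelled KO libraries. The controls carried an engineered deletion that all 6 libraries shared, and no library came from a wild-type prostate. The deletions were made by Cre under the Probasin promoter, which is active in prostate epithelium, and other cells of the gland were not targeted. The mouse prostate cancer line Myc-CaP, of FVB origin, gave 2 libraries of the genotype Myc-CaP EV, carrying an empty vector, and 2 of the genotype Myc-CaP Arid1a KO. ARID1A is a subunit of a SWI/SNF chromatin remodelling complex, and the study asked how its loss changes the transcriptome of prostate tumour cells.

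Toll-like receptors are sensors of microbial and endogenous danger molecules. TLR2 pairs with TLR1 or TLR6 to recognise bacterial lipopeptides, TLR4 recognises lipopolysaccharide delivered by CD14, and TLR5 recognises flagellin at the cell surface, whereas TLR7 and TLR9 recognise single-stranded RNA and unmethylated DNA inside endosomes. All of them signal through MYD88, which assembles IRAK kinases and TRAF6 to activate NF-kB, and IRAK3, also called IRAK-M, restrains that assembly. Macrophages, dendritic cells and neutrophils express these genes at high levels, and epithelia express some of them.

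Promoter windows running from 250 bases before to 50 bases after the start site were taken from RefSeq on GRCm38.p6 for 7 members, 10 windows in all. The choice followed the joint movement of most members in the epithelium, although Irak3, which is among the 7, was not called. No window is given here for Tlr4, Tlr7 or Cd14. Both strands were searched for the NF-kB consensus, for the AP-1 motif TGANTCA and for GAGGAAGT, the core of the myeloid factor PU.1. The 3 windows with a match are shown, with the matched letters in capitals.
Tlr2, chr3:83841559-83841858, minus strand: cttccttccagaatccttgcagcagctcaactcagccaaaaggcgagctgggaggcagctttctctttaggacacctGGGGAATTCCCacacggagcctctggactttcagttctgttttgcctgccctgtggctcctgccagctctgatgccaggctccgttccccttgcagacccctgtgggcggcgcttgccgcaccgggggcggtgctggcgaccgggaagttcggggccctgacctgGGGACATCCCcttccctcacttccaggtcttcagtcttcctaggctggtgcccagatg
Tlr1, chr5:64933509-64933808, minus strand: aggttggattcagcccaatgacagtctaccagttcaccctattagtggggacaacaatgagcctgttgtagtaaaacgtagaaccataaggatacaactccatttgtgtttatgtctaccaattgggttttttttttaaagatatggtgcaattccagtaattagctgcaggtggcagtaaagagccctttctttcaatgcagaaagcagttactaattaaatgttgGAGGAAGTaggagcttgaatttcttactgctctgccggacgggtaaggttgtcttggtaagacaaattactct
Tlr9, chr9:106222348-106222647, plus strand: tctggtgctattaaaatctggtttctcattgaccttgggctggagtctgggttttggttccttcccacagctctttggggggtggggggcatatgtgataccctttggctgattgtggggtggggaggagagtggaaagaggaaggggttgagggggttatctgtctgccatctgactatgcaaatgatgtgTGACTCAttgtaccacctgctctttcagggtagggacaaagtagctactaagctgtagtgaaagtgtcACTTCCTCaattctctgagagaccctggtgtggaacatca
In the Tlr2 window the NF-kB consensus matched at positions -173 and -172 from the start site, which overlap by all but a single base and share the capitals (the latter reads the same on both strands), and again at position -8. Of 32851 promoter windows of this length, 4.51% held that consensus. The Tlr1 window held GAGGAAGT at position -23, which occurred in 3.20% of all windows. The Tlr9 window held TGANTCA at position -58 on both strands, a motif present in 7.81% of all windows, and GAGGAAGT on the opposite strand at position 10. The other 7 windows (1 of Tlr1, 1 of Tlr5, 2 of Tlr6, 1 of Myd88 and 2 of Irak3) held no match. These matches describe letters only, and binding was not measured here.

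Sequencing depth was recovered from the deposited values, which for every gene were whole multiples of what a single read is worth at a length found for that gene. It lay between 29615812 and 36316939 mapped reads in the controls, between 28800759 and 30440708 in the labelled KO libraries, and between 18432610 and 20698114 recovered reads in the Myc-CaP libraries. Arid1a itself, read over the whole gene, was at 27.8, 21.9 and 26.5 RPKM in the controls (A, B and C) and at 31.1, 28.8 and 30.8 RPKM in the labelled KO libraries (log2 fold change 0.25 ± 0.09 SE, limma, adjusted p = 0.0540). A value over the whole gene cannot show whether the deleted exons were lost, so it does not check the labels. In Myc-CaP cells Arid1a fell from 60.5 and 61.0 TPM in EV libraries to 39.5 and 40.3 TPM in Arid1a KO libraries (log2 fold change -0.59 ± 0.06 SE, limma, adjusted p = 0.0102). The epithelial genes Epcam and Krt8 were high in the sorted epithelium (304 ± 40.9 and 859 ± 108 RPKM in controls, SD, n = 3). In Myc-CaP cells Epcam was at 0 TPM in EV libraries and 0.0638 TPM on average in Arid1a KO libraries, and Cdh1 was at 0.0421 and 0.193 TPM, so both were absent or near 0. Krt8 and Krt19, the 2 of 5 luminal epithelial markers that passed the filter on low values in the line, were called higher in Arid1a KO libraries, Krt8 going from 0.932 ± 0.201 to 39.6 ± 1.02 TPM and Krt19 from 0.207 ± 0.163 to 3.46 ± 0.299 TPM (SD, n = 2). Fold changes below are differences of log2(value + 1), given as labelled KO minus control with the standard error of the limma fit.

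In the epithelium, 9 of the 10 members were higher in the labelled KO libraries at an adjusted p under 0.05 (limma, Benjamini-Hochberg over 16275 genes), and no member was lower. All 9 had every labelled KO library above every control. The rise ranged from 0.28 for Myd88 to 1.18 for Tlr7 on the log2 scale, and the median over the 10 members was 0.86 against -0.03 over all genes tested. The background was high in this comparison: 57.1% of all genes tested were called, 27.5% as higher and 29.6% as lower, and 32.4% had all labelled KO libraries above all controls while 34.4% had them all below. The study's methods give as many mice as libraries for each epithelial genotype, although the labels name no animals. Nothing says that the Myc-CaP libraries came from separate cultures, so p-values in the line measure the spread between those libraries, which may be technical. In bulk libraries such as these, more cells of a type and more RNA per cell cannot be told apart.

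By level per gene length, the mean in the controls was highest for Cd14 (412 RPKM), followed by Tlr2 (54.6), Myd88 (43.7), Tlr9 (7.10), Irak3 (4.95), Tlr4 (4.32), Tlr1 (4.06), Tlr7 (3.59), Tlr5 (1.85) and Tlr6 (1.75). The ranges of the control libraries overlapped between each pair of neighbours from Irak3 to Tlr7 and between Tlr5 and Tlr6, so the order among those is not settled. In GENCODE M21 on GRCm38, Tlr2 lies at chr3:83836272-83841767 (minus strand), Tlr4 at chr4:66827584-66930284 (plus), Tlr5 at chr1:182954788-182976044 (plus), Tlr7 at chrX:167304929-167330558 (minus), Tlr9 at chr9:106222598-106226883 (plus) and Irak3 at chr10:120141648-120202130 (minus).

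**Figure D1:**
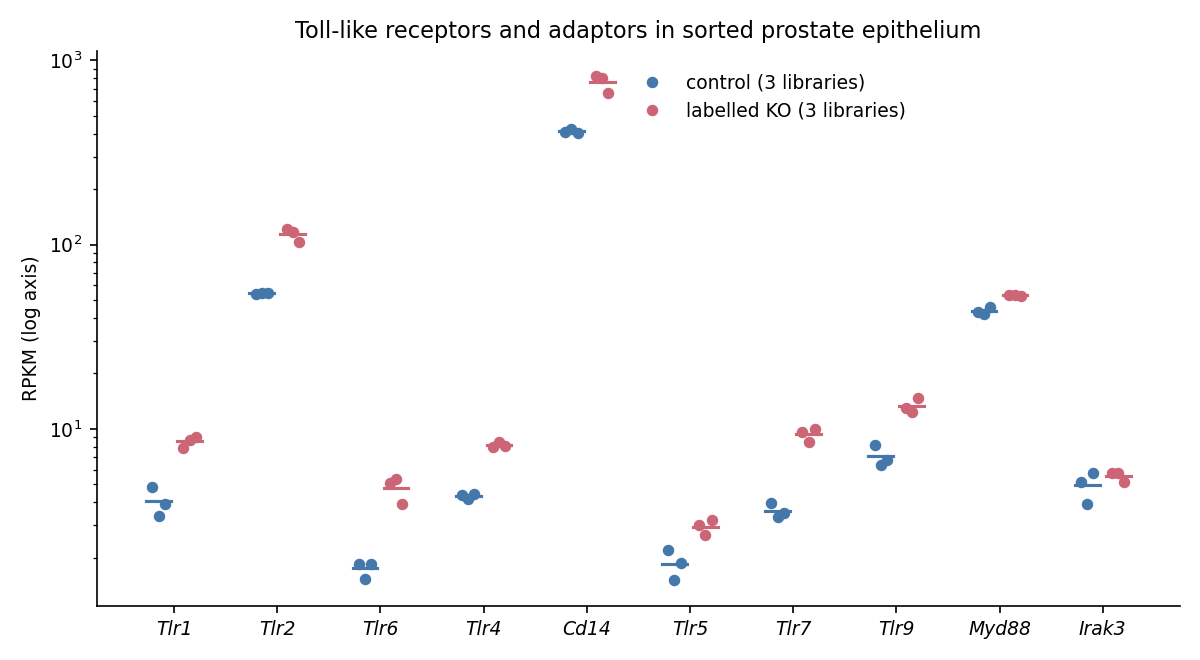
RPKM of the 10 members in each sorted epithelium library, on a log axis, with points for libraries A to C from left to right and bars at the group means. Each red group lies wholly above its blue group except for Irak3, whose groups overlap.

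Tlr2 was the most abundant of the 7 receptors. It was at 54.2, 54.9 and 54.7 RPKM in the controls, listed here and below in the order A, B and C, and at 122, 117 and 104 RPKM in the labelled KO libraries. The controls differed by less than 1 RPKM, and the lowest labelled KO library was still far above them. The group means were 54.6 ± 0.392 and 114 ± 9.46 RPKM (SD, n = 3 each), which differ by a log2 fold change of 1.05 ± 0.07 (limma, adjusted p = 4.68e-05). These values rested on 4925 to 6125 reads per control library and 9176 to 11421 per labelled KO library. In the controls and labelled KO libraries together, 95.4% of the genes tested had a lower mean RPKM than Tlr2.

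Tlr1 and Tlr6, whose products each form a receptor pair with TLR2, were expressed at lower levels and also rose. Tlr1 was at 4.86, 3.38 and 3.93 RPKM in the controls and 7.90, 8.70 and 9.02 RPKM in the labelled KO libraries, a log2 fold change of 0.92 ± 0.11 (limma, adjusted p = 4.61e-04). Tlr6 was at 1.86, 1.54 and 1.85 RPKM in the controls and 5.08, 5.32 and 3.93 RPKM in the labelled KO libraries, a log2 fold change of 1.07 ± 0.11 (limma, adjusted p = 2.43e-04). For both genes the groups were well separated, and labelled KO library C was the lowest of its group for Tlr6 and the highest for Tlr1. The genes lie side by side on the minus strand of chromosome 5 in GENCODE M21 on GRCm38, Tlr1 at chr5:64924679-64933563 and Tlr6 at chr5:64952031-64960097. They are near copies in part: 454 stretches of 50 bases are shared, 13.6% of those in Tlr1 and 12.3% of those in Tlr6, so reads from these stretches could have been split between them and each value is uncertain to that extent. The ratio of Tlr2 to Tlr1 was 13.8 ± 2.57 in the controls and 13.5 ± 1.98 in the labelled KO libraries (exact permutation test, two-sided, p = 0.8, adjusted over 7 ratios p = 0.933, n = 3 each). The ratio of Tlr2 to Tlr6 was 31.5 ± 3.66 and 24.1 ± 2.23, lower in every labelled KO library than in every control (exact permutation test, p = 0.1, the smallest this design allows).

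Tlr4, the lipopolysaccharide receptor, was at 4.36, 4.16 and 4.45 RPKM in the controls and 8.0, 8.49 and 8.07 RPKM in the labelled KO libraries. The spread within each group was small beside the gap between them, and the log2 fold change was 0.79 ± 0.07 (limma, adjusted p = 8.86e-05). Its co-receptor gene Cd14, on chromosome 18, was the most abundant member. It was at 409, 426 and 402 RPKM in the controls and 823, 805 and 669 RPKM in the labelled KO libraries, a log2 fold change of 0.89 ± 0.10 (limma, adjusted p = 3.30e-04). Labelled KO library C was again the lowest of its group, and 99.4% of genes tested had a lower mean RPKM than Cd14. The ratio of Cd14 to Tlr4 was 95.5 ± 6.06 in the controls and 93.5 ± 10.1 in the labelled KO libraries, and the groups overlapped (exact permutation test, two-sided, p = 1). The ratio of Cd14 to Tlr2 was lower in every labelled KO library, at 7.55 ± 0.195 against 6.69 ± 0.230 (exact permutation test, p = 0.1, the smallest possible with 3 against 3).

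Tlr5, the flagellin receptor, had the lowest mean of the receptors in the labelled KO libraries and the smallest rise among them. It was at 2.19, 1.5 and 1.87 RPKM in the controls and 3.00, 2.67 and 3.18 RPKM in the labelled KO libraries, from 363 to 431 and 528 to 609 reads per library. The highest control lay below the lowest labelled KO library, and the log2 fold change was 0.47 ± 0.11 (limma, adjusted p = 0.00812).

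The endosomal receptors rose as well. Tlr7 was at 3.95, 3.33 and 3.50 RPKM in the controls and 9.63, 8.50 and 10.0 RPKM in the labelled KO libraries, a log2 fold change of 1.18 ± 0.09 (limma, adjusted p = 5.79e-05). This was the largest among the members with a pseudocount of 1, whereas Tlr6 was ahead with a pseudocount of 0.1 (1.39 against 1.36 for Tlr7), by voom (1.45 against 1.39) and without labelled KO library C (1.18 against 1.13). Tlr9 was at 8.16, 6.38 and 6.77 RPKM in the controls and 13.0, 12.3 and 14.7 RPKM in the labelled KO libraries, a log2 fold change of 0.83 ± 0.10 (limma, adjusted p = 4.65e-04). Neither gene had overlapping groups. Tlr9 remained above Tlr7 in all 6 libraries, but their ratio went from 1.97 ± 0.0816 to 1.42 ± 0.0657 with no overlap (exact permutation test, two-sided, p = 0.1, adjusted p = 0.175 over 7 ratios, and 0.1 is the smallest p possible).

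Myd88, the adaptor shared by these receptors, changed least among the 9 genes called, except that Tlr5 did so once the length trend was removed (0.33 against 0.42 for Myd88). It was at 43.1, 42.0 and 46.1 RPKM in the controls and 53.5, 53.5 and 52.6 RPKM in the labelled KO libraries, a log2 fold change of 0.28 ± 0.06 (limma, adjusted p = 0.00552). The groups did not overlap. Because Tlr2 rose more, the ratio of Myd88 to Tlr2 went from 0.801 ± 0.0396 to 0.468 ± 0.0353 (exact permutation test, p = 0.1, the smallest possible). Myd88 lies at chr9:119335934-119341411 on the minus strand and overlaps Slc22a14 on the same strand and Acaa1a on the opposite strand, so reads in the overlaps may have been counted for either gene or left out.

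Irak3, the inhibitory kinase-like member, was not called. It was at 5.16, 3.93 and 5.75 RPKM in the controls and 5.76, 5.75 and 5.18 RPKM in the labelled KO libraries. The groups overlapped, and the log2 fold change was 0.15 ± 0.12 (limma, adjusted p = 0.308). This p does not show that the levels were equal. Irak3 overlaps the antisense gene Gm47009 and Tmbim4, both on the opposite strand.

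By the study's thresholds, an unadjusted p under 0.05 with a change of at least 1.5-fold, 7 members passed and all 7 were higher, against 24.8% of all genes tested passing and 11.8% passing as higher. Tlr5 and Myd88 were called at the adjusted threshold and fell short of this fold on the log2(RPKM + 1) scale. By the plain ratio of mean RPKM, Tlr5 was at 1.59, above 1.5-fold, and Myd88 was at 1.22.

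**Figure D2:**
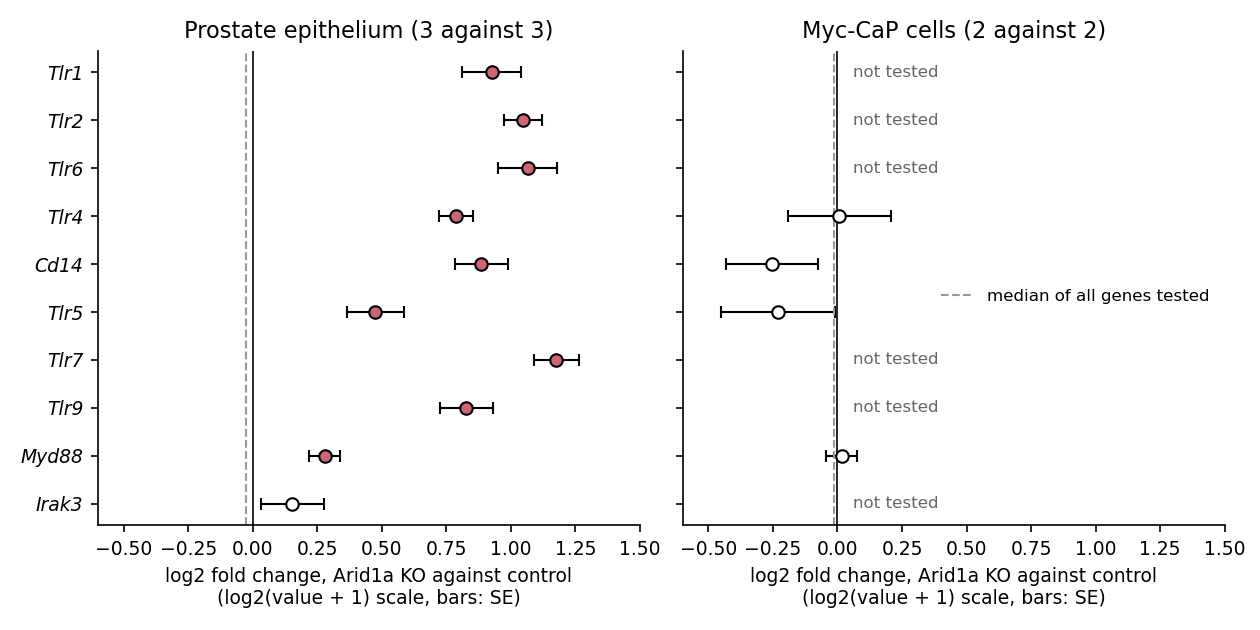
Log2 fold changes of the members on the log2(value + 1) scale, labelled KO against control, with standard errors as bars and filled points for genes called at an adjusted p under 0.05. In the epithelium 9 filled points lie to the right of 0, and in Myc-CaP cells the 4 genes tested lie between -0.25 and 0.02 with none filled.

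Over the 6 epithelium libraries, the 3 genes whose centred profile was most like that of each member were identified by their root mean square difference in log2(RPKM + 1), which is given in brackets. Closest to Tlr2 were Ppp1r3d (0.0181), Ankrd22 (0.0264) and Cd300a (0.0316), the last of which encodes an inhibitory receptor of myeloid cells. Closest to Tlr6 were Csf3r (0.0255), the receptor of granulocyte colony-stimulating factor, Bcl2l11 (0.0300) and Zc3h12a (0.0383). Tlr7 was nearest to Pydc3 (0.0291), Mrc1 (0.0462), the macrophage mannose receptor, and Pyhin1 (0.0535). Cd14 was nearest to C130050O18Rik (0.0221), Smox (0.0304) and Dennd2c (0.0321), and Myd88 to Canx (0.0138), Pacsin2 (0.0184) and Otud5 (0.0194). Tlr1 was nearest to Aldh1a3 (0.0511), Hs3st3b1 (0.0531) and Mapk6 (0.0536), Tlr4 to A230046K03Rik (0.0281), Arhgap4 (0.0287) and Plagl2 (0.0299), and Tlr5 to Pxk (0.0271), Parp4 (0.0321) and Rassf4 (0.0325). Tlr9 was nearest to Aoah (0.0510), which encodes an enzyme that inactivates lipopolysaccharide, Ms4a14 (0.0556) and Hs3st3b1 (0.0593), and Irak3 to Kirrel (0.0341), Dock6 (0.0399) and Mpp6 (0.0405). These are descriptions over 6 libraries that fall into the same groups, and carry no test. A function is given only for Cd300a, Csf3r, Mrc1 and Aoah, and it does not speak for the other neighbours.

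The receptors that were not members did not all move with them. Tlr8 rose from 2.47 ± 0.277 to 8.23 ± 0.490 RPKM (log2 fold change 1.41) and Tlr13, which recognises bacterial ribosomal RNA in mice, from 7.14 ± 0.318 to 21 ± 1.69 RPKM (1.43). Tlr12, a receptor for profilin of protozoa, fell by 0.65 on the log2 scale, from 3.25 ± 0.53 to 1.71 ± 0.369 RPKM. Tlr3, the double-stranded RNA receptor that signals without MYD88, was at 4.74 ± 0.145 and 4.82 ± 0.643 RPKM and was not called. Tlr11 stayed under the level tested.

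For the counts of each epithelium list here and below, the background is 57.1% of all genes tested called, 27.5% as higher and 29.6% as lower. Of 8 co-receptors and chaperones, 3 rose and 1 fell. Those that rose were Ly86, the partner of CD180, from 42.1 ± 4.27 to 76.0 ± 11.6 RPKM, Cd180 itself from 7.42 ± 1.34 to 10.9 ± 1.04 RPKM, and Unc93b1, which carries the endosomal receptors to their compartment, from 142 ± 9.36 to 194 ± 3.58 RPKM. Lbp, which encodes the lipopolysaccharide-binding protein, fell from 62.6 ± 9.31 to 34.3 ± 5.35 RPKM. The median of the list was 0.01 on the log2 scale. Among 5 other adaptors 4 were tested and 3 rose: Tirap, which bridges TLR2 and TLR4 to MYD88 (log2 fold change 0.35), Ticam2 (0.46) and Pik3ap1 (0.61). Ticam1, the adaptor of TLR3, was at 11.6 ± 0.859 and 11.2 ± 1.52 RPKM and was not called.

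Downstream of the adaptors, a list of 13 kinases, ubiquitin ligases and their partners is named kinases and ubiquitin ligases here and below. Of these 13 genes, 9 rose and 1 fell, with a median of 0.36. Irak4, the kinase first recruited by MYD88, went from 6.68 ± 0.211 to 13.8 ± 0.207 RPKM (log2 fold change 0.94), Irak2 from 21.1 ± 0.967 to 38.3 ± 4.2 RPKM (0.82) and Ikbke from 9.51 ± 0.531 to 19.1 ± 1.20 RPKM (0.94). Tab1 fell from 8.18 ± 0.851 to 6.40 ± 0.0877 RPKM. Of 8 inhibitors of the pathway 5 rose and 1 fell. Il1rl1, a receptor that sequesters MYD88, rose from 2.65 ± 0.571 to 6.35 ± 0.544 RPKM and Tnfaip3, which encodes the deubiquitinase A20, from 83.2 ± 4.2 to 159 ± 11.7 RPKM. Sigirr fell from 10.1 ± 1.40 to 7.24 ± 0.0509 RPKM. The rise of Dusp1 (log2 fold change 0.26, adjusted p = 0.0492) was lost without control A, B or C, without labelled KO library A or B, and without the filter on low values. The count of inhibitors called was 3 in place of 6 without control C or without labelled KO library A, and 4 without any single one of the other libraries or without the filter on low values.

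Of 6 endogenous ligands of the receptors, 2 rose, both of them extracellular matrix genes. Tnc, which encodes tenascin C, went from 6.03 ± 0.843 to 38.1 ± 6.40 RPKM and Vcan, which encodes versican, from 2.69 ± 0.642 to 4.98 ± 0.761 RPKM. The alarmin genes S100a8 (144 ± 38.4 and 177 ± 46.9 RPKM) and S100a9 (189 ± 36.4 and 251 ± 68.0 RPKM) had overlapping groups and were not called. S100a9 did pass the test without labelled KO library C, at a log2 fold change of 0.60 in place of 0.39.

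Among 5 transcription factors of the pathway, Irf5 (log2 fold change 0.72) and Nfkb1 (0.47) rose, Irf3 fell by 0.42 on the log2 scale, and Irf7 and Rela were not called. Irf7 passed the test without control B, at 0.17 in place of 0.08. Of 20 response genes, cytokines and other targets of the pathway, 19 were tested, 13 rose and 5 fell, with a median of 0.85. Il1a, which encodes an alarm cytokine, rose from 14.7 ± 0.639 to 67.7 ± 5.13 RPKM, Ptgs2, which encodes an inducible cyclooxygenase, from 63.0 ± 5.01 to 171 ± 18.1 RPKM, and Clec4e, a C-type lectin receptor of macrophages, from 17.8 ± 0.662 to 48.4 ± 5.07 RPKM. The siderophore-binding Lcn2 fell from 266 ± 32.4 to 134 ± 13.4 RPKM, Nos2, the inducible nitric oxide synthase, from 6.04 ± 0.149 to 4.23 ± 0.704 RPKM, and the interferon-induced chemokine Cxcl10 from 118 ± 2.66 to 93.2 ± 2.59 RPKM. Over the 8 lists together, 67 of 70 genes were tested, 39 rose and 10 fell, beside 27.5% of all genes tested called higher and 29.6% called lower. The fall of Tab1 was no longer called once libraries were rescaled to the same sum. Of the 5 falls among response genes, those of Cxcl10, Il6 and Ifnb1 were lost under that rescaling and also once a trend with gene length was removed, either of which left 15 of 18 calls. Il6 and Ifnb1 are named here after their values were seen.

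**Figure D3:**
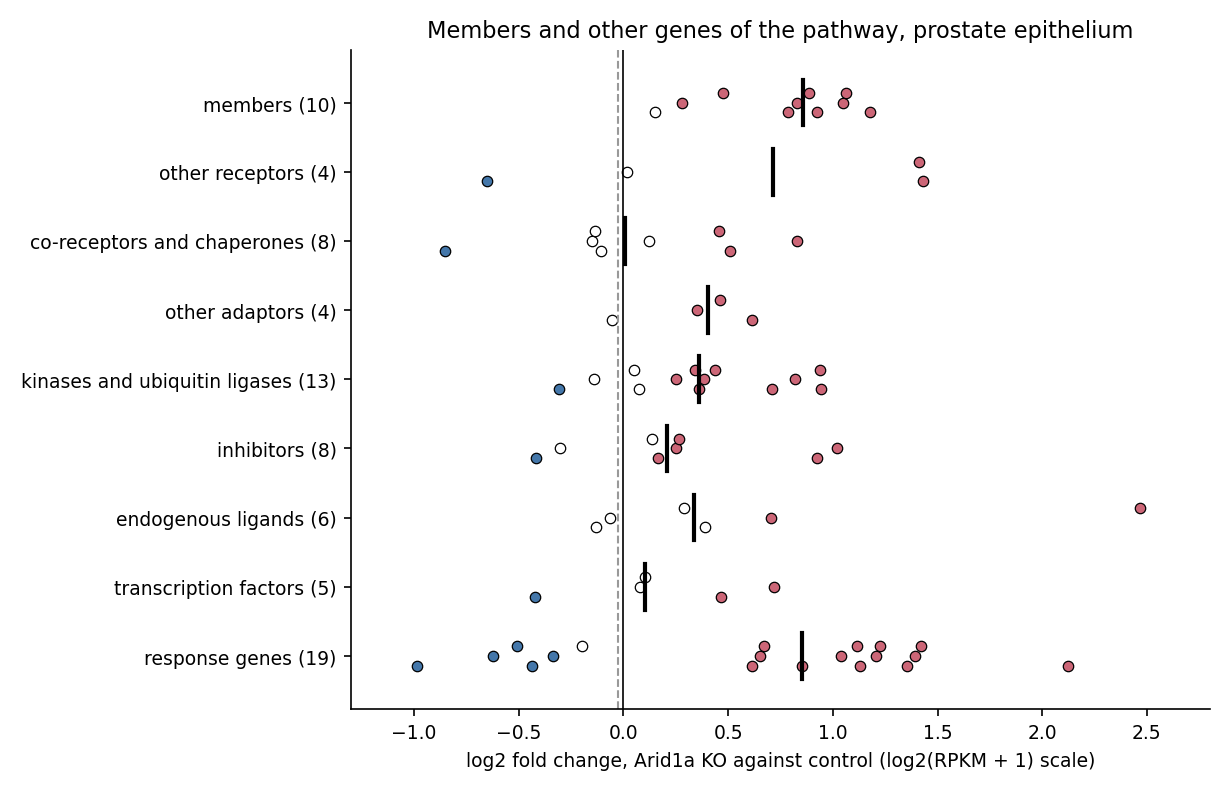
Log2 fold change of each tested gene in the epithelium, by list, with the number of genes tested in brackets, red for genes called higher, blue for genes called lower and white for genes not called. Black bars mark list medians, 0.86 for the members and 0.85 for the response genes, and the dashed line marks the median of all genes, -0.03.

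Ptprc and the macrophage markers moved in the same direction as the members, although the cells had been sorted as CD45-. Ptprc, which encodes CD45, was at 28.6 ± 2.3 RPKM in the controls and 57.3 ± 0.983 RPKM in the labelled KO libraries (log2 fold change 0.98 ± 0.07, limma, adjusted p = 5.36e-05). All 9 markers of macrophages and monocytes rose, with a median of 0.84, and their summed level ranged from 2347 to 2736 RPKM in the controls and from 4222 to 4928 RPKM in the labelled KO libraries. Of 5 general leukocyte markers 4 rose and 1, Cd52, fell. Of 9 neutrophil markers 4 rose and 1 fell, and their summed level overlapped between the groups, from 340.2 to 475.9 RPKM against 387.3 to 638.8 RPKM. Among 6 dendritic cell markers Itgax and Siglech rose and 4 were not called, 3 of 4 B cell markers tested rose, as did 2 of 5 T cell markers. None of the tested markers of these lists was at 0 in a group mean. Their part in the rise of the members was not tested.

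Set against these markers library by library, the summed receptors, Cd14 and Myd88 did not behave alike. The 7 receptors summed to 2.62, 2.89 and 2.61 times the level of Ptprc in the controls and to 3.00, 2.8 and 2.65 times in the labelled KO libraries, and the groups overlapped. In the controls Tlr2 gave 54.2 to 54.9 RPKM of a sum of 75.2 to 79.5 RPKM, so the sum mostly followed Tlr2. Single receptors and Irak3 were not set against Ptprc library by library. Their ratios of mean RPKM, labelled KO to control, lay on both sides of that of the sum (2.09). They were 2.73 for Tlr6, 2.61 for Tlr7, 2.11 for Tlr1, 2.09 for Tlr2, 1.89 for Tlr4, 1.88 for Tlr9 and 1.59 for Tlr5. Irak3 was at 1.12, and the mean of Ptprc went from 28.6 to 57.3 RPKM. Differences between these ratios were not tested. Cd14 was at 13.5, 16.4 and 13.6 times the level of Ptprc in the controls and at 14.6, 13.8 and 11.6 times in the labelled KO libraries, again with overlap. Myd88 was at 1.42, 1.61 and 1.56 times the level of Ptprc in the controls and at 0.951, 0.92 and 0.913 times in the labelled KO libraries, lower in each of them. As a share of the summed macrophage and monocyte markers, the summed receptors were at 3.09% ± 0.293 in the controls and 3.57% ± 0.243 in the labelled KO libraries (SD, n = 3), and every labelled KO library was above every control. These ratios were chosen after the marker values had been seen and carry no test.

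Markers of other cell types moved too. Of 5 luminal epithelial markers 3 fell and 0 rose, including Epcam, by which the cells were sorted, from 304 ± 40.9 to 201 ± 21.5 RPKM. The basal keratins Krt5 and Krt14 rose (log2 fold changes 1.34 and 2.45) and Trp63 was not called. Among 5 fibroblast markers 3 fell, among 3 smooth muscle markers 1 rose and 2 fell, and among 4 endothelial markers 1 rose. All 6 seminal vesicle secretory genes fell, their summed level going from between 18306 and 20707 RPKM in the controls to between 622.6 and 1573 RPKM in the labelled KO libraries. RPKM is a share of all mapped reads. With each library rescaled to the same sum of values, the median of all genes tested moved from -0.03 to 0.11 on the log2 scale, and 9 members were still called.

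**Figure D4:**
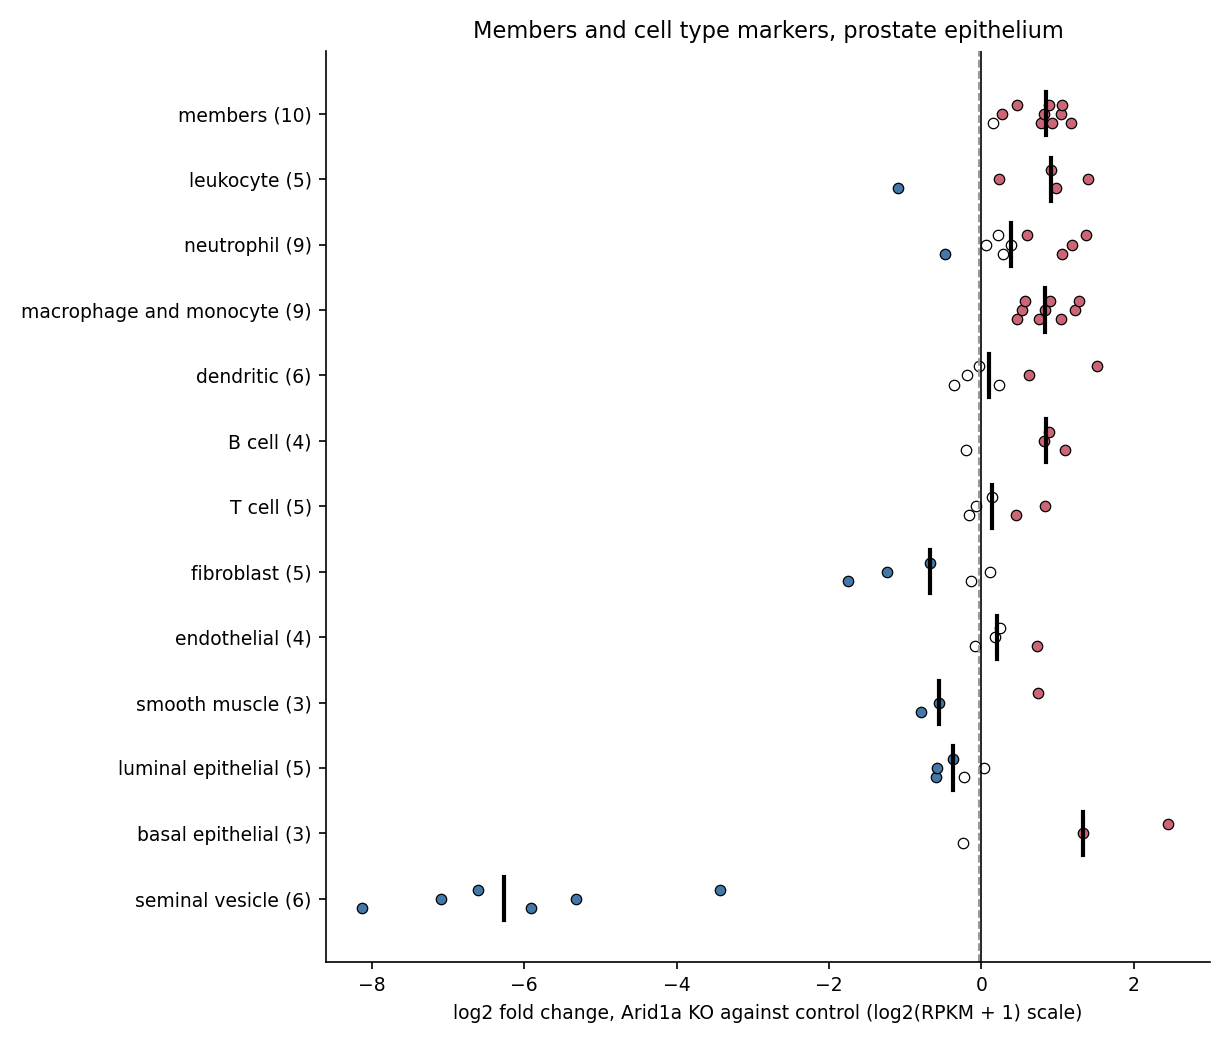
Log2 fold change of members and of cell type markers in the epithelium, with the number of genes tested in brackets, colours as for the pathway lists, black bars at list medians and a dashed line at the median of all genes. The macrophage and monocyte markers all lie to the right of 0 with a median of 0.84, beside 0.86 for the members. The B cell markers have a median of 0.86 and the leukocyte markers 0.92. The seminal vesicle genes lie at the far left.

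In Myc-CaP cells 4 of the 10 members reached the mean of 0.5 TPM required for the test, and 0 were called by limma at an adjusted p under 0.05, nor was any at an unadjusted p under 0.05 or by the voom fit on recovered reads. In this comparison 6.43% of 13974 genes tested were called, 4.54% as higher and 1.89% as lower, and 22.1% had an unadjusted p under 0.05. Myd88, the most abundant member in the line, was at 39.2 and 39.9 TPM in EV libraries 1 and 2 and at 40.0 TPM in both Arid1a KO libraries, a log2 fold change of 0.02 ± 0.06 (limma, adjusted p = 0.913). The groups lay apart by less than 1 TPM. Tlr4 was at 4.75 and 5.63 TPM in EV and at 4.25 and 6.35 TPM in Arid1a KO libraries, which enclosed the EV values (log2 fold change 0.01 ± 0.20, limma, adjusted p = 0.991). Cd14 was at 9.40 and 10.2 TPM in EV and at 6.70 and 9.66 TPM in Arid1a KO libraries, with overlapping groups (log2 fold change -0.25 ± 0.18, limma, adjusted p = 0.482).

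Tlr5 was at 0.961 and 0.800 TPM in EV and at 0.783 and 0.435 TPM in Arid1a KO libraries, from 56, 41, 43 and 22 reads. Both Arid1a KO libraries were lower, but the log2 fold change of -0.23 ± 0.22 did not pass the test (limma, adjusted p = 0.610). Groups that did not overlap were common here, at 51.5% of genes tested, 24.9% with both Arid1a KO libraries higher and 26.6% with both lower. By the study's thresholds 0 members passed, against 6.28% of genes tested, 4.62% as higher. The sign of the Tlr4 change and that of Myd88 flipped under quantile normalization.

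The other 6 members were at or near the limit of detection in the line. Tlr2 had 2 and 3 reads in EV libraries and 9 and 10 in Arid1a KO libraries, or 0.0742, 0.127, 0.355 and 0.428 TPM. The summed reads were 5 (95% exact Poisson interval 1.62 to 11.7) and 19 (11.4 to 29.7), intervals that cover counting error only. Both Arid1a KO libraries were above both EV libraries, with a ratio of mean TPM of 3.90, and the gene was too low to be tested. Tlr6 had 13 and 18 reads in EV and 11 and 12 in Arid1a KO libraries, and Tlr7 had 6 and 9 and then 7 and 5, and the TPM values of the groups overlapped for both genes. Tlr1 had 1 read in all, in Arid1a KO library 2, Irak3 had 3 reads in all, in EV library 2, and Tlr9 had 0 reads in the 4 libraries. A count of 0 allows up to 3 reads, which is, as counts scaled to mapped reads, 0.0762 CPM over the EV libraries and 0.0789 over the Arid1a KO libraries. Ptprc had a mean of 0.0221 TPM in EV and 0 in Arid1a KO libraries, and the summed macrophage and monocyte markers stayed between 0.823 and 2.95 TPM, without separation of the groups.

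**Figure D5:**
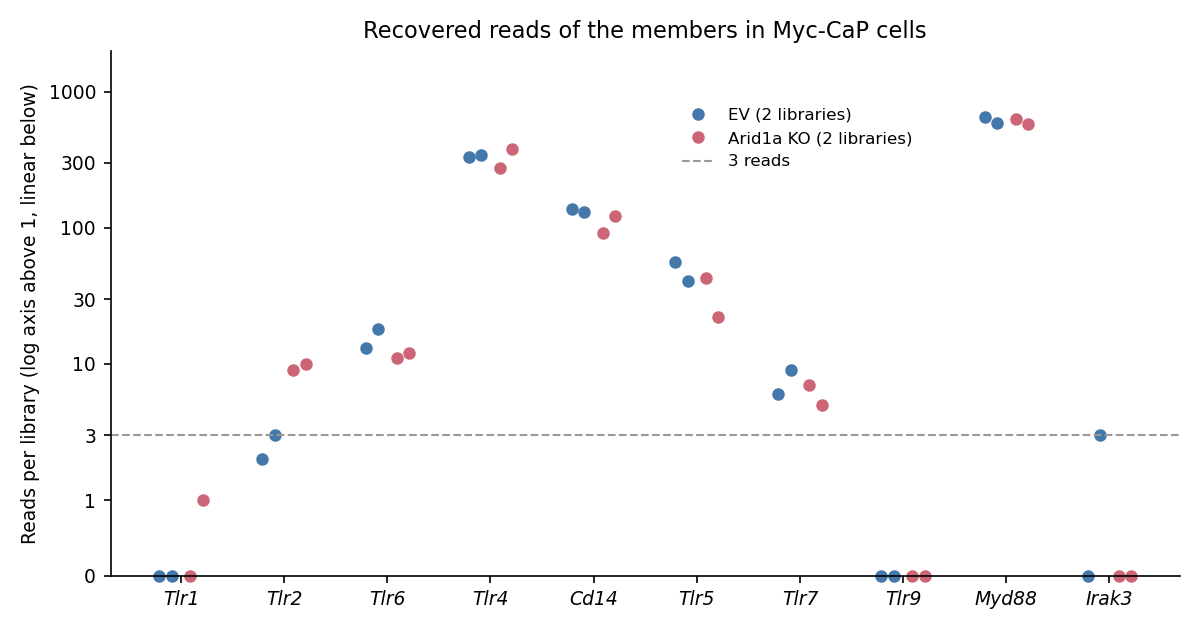
Reads of each member in the 4 Myc-CaP libraries, on an axis that is logarithmic above 1 and linear below, with a dashed line at 3 reads. Myd88, Tlr4, Cd14 and Tlr5 lie above 20 reads in all libraries, whereas Tlr1, Tlr9 and Irak3 are at 3 reads or fewer.

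Other genes of the pathway were also sparser in the line, where 45 of the 70 listed were tested, 5 rose and 2 fell. Over all genes tested in the line, 4.54% were called higher and 1.89% lower. Tlr3 was the only other receptor with a value above the limit for testing, and it rose from 9.34 ± 1.19 to 17.7 ± 3.13 TPM (SD, n = 2 each; log2 fold change 0.85 ± 0.16, limma, adjusted p = 0.0470), a call that was lost when any single library was left out, without the filter on low values and without the variance trend. Irf7, an interferon-induced transcription factor, rose from 64.8 ± 0.233 to 205 ± 5.86 TPM, Il1rl1 from 1.04 ± 0.0488 to 4.01 ± 1.10 TPM, Cxcl10 from 12.8 ± 0.160 to 26.4 ± 3.05 TPM and Ptgs2 from 60.8 ± 8.08 to 105 ± 14.6 TPM. Tnfaip3 fell from 70.4 ± 2.95 to 45.0 ± 0.842 TPM and Lcn2 from 100.2 ± 1.05 to 32.9 ± 0.145 TPM. Of these 7 genes, Irf7 and Lcn2 kept their call when any single library was left out, and Tlr3, Il1rl1, Cxcl10, Ptgs2 and Tnfaip3 did not. None of the kinases and ubiquitin ligases, 13 of which were tested, was called by limma. An unadjusted p under 0.05 was found for 3 of them, beside 22.1% of all genes tested.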

How the data were processed

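RNA was sequenced from 10 libraries in 4 groups, taken from the genotype labels. The authors deposited RPKM for the sorted epithelium (reads scaled by gene length and by mapped reads) and TPM for Myc-CaP cells (scaled by gene length to the same sum per library). According to the study's methods, reads were aligned with TopHat2 and counted by strand with HTSeq-count on GRCm38, whereas the submitters' processing notes name HISAT2, HTSeq, DESeq2 and mm10. Gene lengths and the annotation are not given in the sources used here. All samples carry the same growth and treatment texts, so growth of the Myc-CaP libraries in culture was read from the labels. Whole reads were recovered from RPKM and TPM with 1 length per gene, which left 100% of 35175 rows with values above 0 within 0.003 of whole reads in all 10 libraries. Each length was the smallest that gave whole reads, so this is a weak check for genes above 0 in few libraries. Lengths found from RPKM alone and from TPM alone were within 0.1% for 99.4% of 13721 genes compared, all of them above 0 in all 10 libraries. No count model was fitted to the deposited units.

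Each table was fitted alone with limma 3.58.1 in R 4.3.3 (eBayes with a trend) on log2(value + 1), for genes with a mean of at least 0.5, two-sided, with Benjamini-Hochberg adjustment over all genes tested and a call at an adjusted p under 0.05. The pseudocount of 1 understates changes of low genes. Ratios were compared by exact permutation over libraries. The fit was tested on simulated data with independent noise and fewer changed genes than were called here. That test does not vouch for the calls. Members, pathway lists and marker lists were chosen with earlier results of these data known. Every member was named. From each pathway list, up to 3 called genes with the largest rise and 3 with the largest fall were named where the groups did not overlap, and lists of 6 or fewer could be named in full. Alternatives were a pseudocount of 0.1, no filter, a minimum mean of 1, no trend, quantile normalization, rescaling, a replicate block, leaving out each library, the study's thresholds and, added after the data were seen, removal of a length trend and voom on recovered reads. A further luminal marker and the deletion shared by all epithelial libraries are not reported here.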

Additional observations from a re-analysis of the deposited data

Results flagged for a closer look

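For 13 genes of the pathway every labelled KO library moved away from the controls in the opposite direction in the epithelium and in Myc-CaP cells. These differences between the epithelium and the cell line were not tested, because the tables were normalized separately. Groups that do not overlap made up 66.7% of genes tested in the epithelium (32.4% higher, 34.4% lower) and 51.5% in Myc-CaP cells (24.9% higher, 26.6% lower). The share of all genes that moved in opposite directions by the same rule was not counted, so whether 13 is many cannot be judged. Tlr5 was the only member among them, with a log2 fold change of 0.47 in the epithelium and -0.23 in Myc-CaP cells, where it was not called. The deubiquitinase gene Tnfaip3 (0.93 and -0.63) and the chemokine gene Cxcl10 (-0.34 and 0.98) were called in both comparisons, in opposite directions. Neither kept its call in the line when any single library was left out. The call of Cxcl10 in the epithelium was lost under rescaling to the same sum and once the length trend was removed. Of the others, Irak4 (0.94 and -0.41), Tirap (0.35 and -0.08), Map3k7 (0.25 and -0.23), Tab2 (0.34 and -0.13), Rnf216 (0.25 and -0.24), Irf5 (0.72 and -0.26) and Plaur (1.35 and -0.29) were called higher in the epithelium and not called in the line. Lbp was called lower in the epithelium (-0.85) and was at 0.21 in the line without a call. Hsp90b1 (0.12 and -0.28) and Socs1 (-0.30 and 0.25) were called in neither.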

How the results depend on the processing

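All 9 called members kept their direction and call in the epithelium under 15 alternatives, and Irak3 was called under none (limma, adjusted p from 0.0916 to 0.818). The study's thresholds, which are not among those 15, were passed by 7 members. The epithelium gave 9294 calls, 48.1% of them higher, and 4037 by the study's thresholds, which also gave 2 co-receptors, 1 other adaptor, 4 kinases and ubiquitin ligases, 2 inhibitors and 1 transcription factor. Rescaling to the same sum gave 5 transcription factors and 9323 calls, 64.8% of them higher. Leaving out 1 library gave between 3 and 4 inhibitors in place of 6. Reversals in the epithelium were Tlr3 without the length trend (-0.11) and in leave-one-out (-0.074 to 0.062), Ticam1 (0.11 rescaled, -0.12 to 0.055 in leave-one-out), Hmgb1 (0.11 rescaled) and Bgn (0.019 under quantile normalization, 0.047 rescaled, -0.33 to 0.018 in leave-one-out), none of them called.

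Myc-CaP cells gave 899 calls, 358 with no filter, 451 with no trend, 1563 by voom and between 47 and 76 with 1 library left out, where the lone library is assumed to vary like the others. Other receptors went from 1 call to 0 with no filter, with no trend and in leave-one-out. Co-receptors went from 0 to 1 with no trend and by voom and to 2 by the study's thresholds. Inhibitors went from 2 to 1 with no filter or trend and to 0 in leave-one-out, endogenous ligands from 0 to 1 by voom, and response genes from 3 to 5 by voom and by the study's thresholds and to 1 in leave-one-out. Tlr4 reversed under quantile normalization (-0.016), by voom (-6.66e-04) and in leave-one-out (-0.24 to 0.25), Myd88 under quantile normalization (-0.0046), Bgn (-1.48 to 0.56), Tnc (-1.22 to 0.15) and Irf3 (-0.086 to 0.037) in leave-one-out. The causes of these changes were not tested.

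Same-lettered epithelium libraries did not deviate together (r = 0.0409, 0.00944 and -0.0573). The Myc-CaP libraries share only a number (r = 0.195). With 2 libraries per group both pairs must give the same r, so it cannot decide whether those libraries were paired. With a replicate block the epithelium gave 8823 calls, with 4 inhibitors in place of 6 and 9 kinases and ubiquitin ligases in place of 10, and Myc-CaP cells gave 2771, with 2 co-receptors, 1 other adaptor, 2 kinases and ubiquitin ligases, 4 inhibitors, 1 endogenous ligand, 3 transcription factors and 5 response genes. The block changed no call of a member.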
